A study of Mus musculus with 6 samples.

Results

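The CC chemokines described here are 10 genes, Ccl2, Ccl3, Ccl4, Ccl5, Ccl6, Ccl7, Ccl9, Ccl17, Ccl22 and Ccl24, chosen by their symbols from the 54532 genes of the deposited count table. They were followed by RNA-seq in mouse CD8T cells that had been taken from spleen, stimulated with beads against CD3 and CD28 and kept for 24 hr in coculture with macrophages at a ratio of 1:1. The macrophages were peritoneal cells elicited with thioglycolate and exposed for 12 hr to IFN-γ at 10 ng/mL. In the control group (3 libraries) these macrophages received no DB2313, and in the DB2313 group (3 libraries) they had received DB2313, which inhibits the transcription factor PU.1, encoded by Spi1, for which the methods give 14 nM. The labels divide the libraries by DB2313 in the same way, but call the samples primary T cells and the cocultured cells DC cells. No library of CD8T cells alone was analysed here. The libraries also held macrophage markers at high levels, with Lyz2 at a mean of 7702 CPM and Cd8a at 118.5 CPM in control libraries. The levels below are therefore those of whole samples, and which cells gave each transcript was not determined. The sources do not say whether the 3 libraries of a group came from separate cultures, so the p-values measure the spread between these libraries, which may be technical.

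CC chemokines are small secreted proteins with a pair of adjacent cysteines near the N terminus. They bind G protein-coupled receptors of the Ccr family on leukocytes and direct their migration. Macrophages and dendritic cells are major sources of many of them, and activated CD8T cells themselves make Ccl3, Ccl4 and Ccl5. Ccl2 and Ccl7 draw monocytes through Ccr2, Ccl3, Ccl4 and Ccl5 draw T cells and other leukocytes, Ccl6 and Ccl9 act through Ccr1, Ccl17 and Ccl22 are the ligands of Ccr4, and Ccl24 draws eosinophils through Ccr3.

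Library totals lay between 16611975 and 18596217 counts on genes, so that a gene at 0 counts could hold up to 3, or 1.81e-05% of a library, by counting error alone. Of all genes, 14883 passed the filter on low counts, all 10 CC chemokines among them. Levels are given as CPM, that is, counts relative to the TMM-scaled library total, and differences as the log2 fold change of DB2313 over control with its standard error (SE) and an adjusted p (quasi-likelihood test of edgeR, Benjamini-Hochberg adjustment over the 14883 genes). Cell type markers differed between the groups. All 18 T cell markers were higher in the DB2313 group (median log2 fold change 0.59), and their summed level was 3388 to 3425 CPM in control and 5078 to 5160 CPM in DB2313 libraries. Of 15 macrophage markers tested (of 16 listed, none at 0), 14 were lower and Marco was higher, though not under scaling to the T cell markers (0.20, adjusted p = 0.149, edgeR). Their median was -1.21, and the summed level was 10632 to 10925 CPM against 3434 to 3557 CPM. Most of this sum was Lyz2 alone, with means of 7702 CPM in control and 2084 CPM in DB2313 libraries. All 9 neutrophil markers were lower, with sums of 1992 to 2009 CPM against 702 to 719.6 CPM. All 4 tested markers of mature dendritic cells (of 6) and 5 of 8 tested dendritic cell markers (of 9, Siglech at 0) were also lower, with sums of 2090.1 to 2139 CPM against 1744 to 1789 CPM and of 340.7 to 352 CPM against 225 to 233 CPM. The dendritic cell marker Flt3 was higher (0.36), but turned negative under scaling to the T cell markers (-0.23). Of 9 markers of mast cells, basophils and eosinophils, 4 were lower and 3 higher (median -0.025, sums of 974 to 996 CPM against 665.6 to 689.7 CPM), and under scaling to the T cell markers 7 were lower and 0 higher. Of 6 B cell markers, 4 were higher and 0 lower (median 0.47, sums of 39.6 to 45.3 CPM against 57.3 to 59.8 CPM), but on that scale 0 were higher and 2 lower. Among all 14883 tested genes, 24.6% were lower and 20.8% higher under TMM. Scaling to the T cell markers gave 11498 lower and 168 higher genes, so most tested genes were lower there. The part of these shifts in the chemokine results was not tested, and in such bulk samples fewer cells of a type and less RNA per cell cannot be told apart.

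Of the 10 CC chemokines, 6 were lower in the DB2313 group at an adjusted p under 0.05 (Ccl5, Ccl6, Ccl9, Ccl17, Ccl22 and Ccl24), while 24.6% of all tested genes were lower. Ccl2, Ccl4 and Ccl7 were higher, against 20.8% of all tested genes. The log2 fold changes of Ccl2 and Ccl4 turned negative when the libraries were scaled to the T cell markers instead, where Ccl2 was called lower and Ccl4 was not called. Ccl3 was not called. With an added limit of 1 on the absolute log2 fold change, 4 were lower (Ccl5, Ccl6, Ccl9 and Ccl24; 5.3% of all tested genes) and Ccl7 was higher (1.37% of all tested genes). The control and DB2313 libraries did not overlap for any of the 9 called genes, 6 of them lower (27.5% of all tested genes) and 3 higher (25.6%). The median log2 fold change of these 10 genes was -0.80, beside 0.020 over all tested genes. Over the 14 tested of all 24 CC chemokine genes listed it was -0.074, with 6 lower and 4 higher.

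Scaling to the T cell markers moved the median of all tested genes to -0.57. On that scale 8 CC chemokines were lower and 1, Ccl7, was higher, while of all 14883 tested genes 11498 were lower and 168 higher. Most tested genes were thus lower on that scale, and an excess of lower genes among the chemokines was not tested. There the log2 fold changes of Ccl2, Ccl3 and Ccl4 were -0.23, -0.45 and -0.14, with Ccl4 not called (adjusted p = 0.274, edgeR). Relative to the median of all genes they were 0.34, 0.12 and 0.43, as under TMM. Scaling moves all genes by about the same amount, so this equality holds by construction and is no check of a rise.

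**Figure D1:**
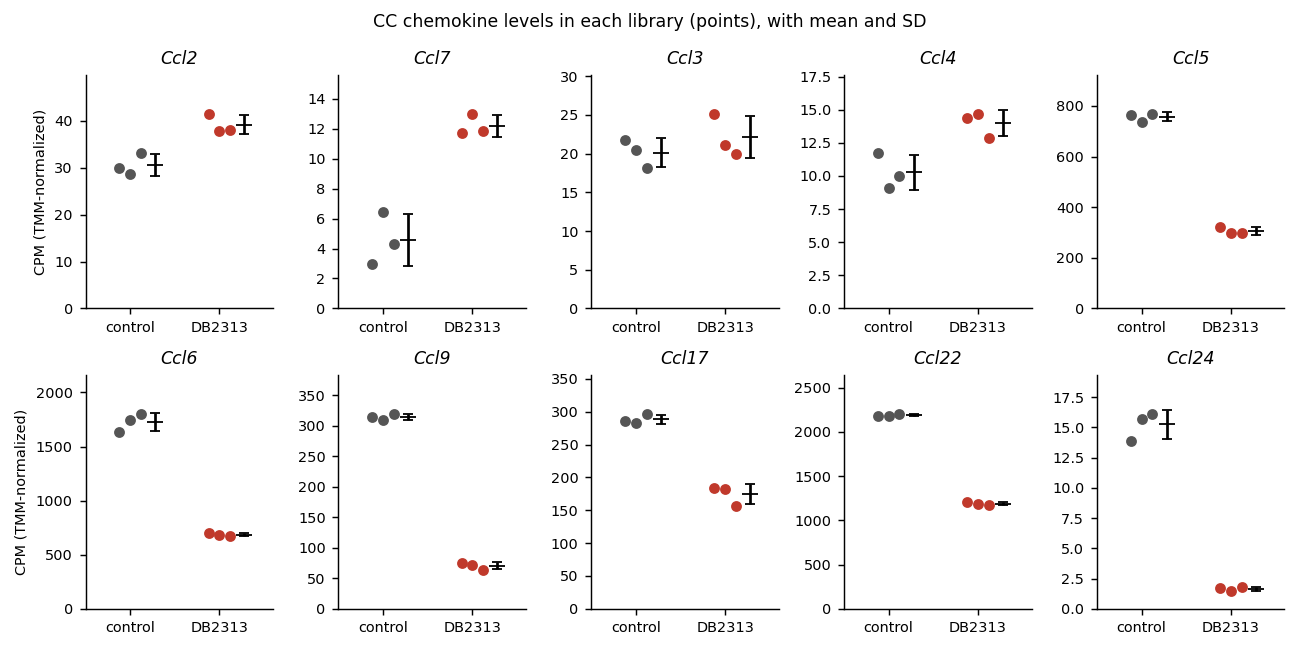
Level of each CC chemokine in the control (grey) and DB2313 (red) libraries, in CPM with an axis from 0 and a scale of its own for each gene. Points are libraries and the bars beside them are the mean and SD (n = 3 each). The groups overlap for Ccl3. For Ccl2, Ccl3 and Ccl4 the difference turned negative under scaling to the T cell markers, where Ccl4 was not called.

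Ccl22 and Ccl6 were the most abundant of the 10 in both groups, and the whole set took a smaller share of the RNA after DB2313. The CC chemokines together held 0.511%, 0.515% and 0.527% of all counts in the control libraries. In the DB2313 libraries they held 0.266%, 0.258% and 0.254%. The means were 0.518% ± 0.0085 and 0.260% ± 0.0063 (SD, n = 3 each), a difference of -0.258 percentage points with an exact permutation p of 0.1 (two-sided), which is the smallest that 3 against 3 allows. Within this pool, Ccl22 made up 40.9% ± 0.586 of the counts of the 10 genes in control libraries and 47.2% ± 0.672 in DB2313 libraries (SD, n = 3 each). Ccl6 made up 32.2% ± 0.971 and 27.3% ± 0.125, and Ccl5 14.1% ± 0.366 and 12.2% ± 0.306. These shares of the pool were not tested.

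**Figure D2:**
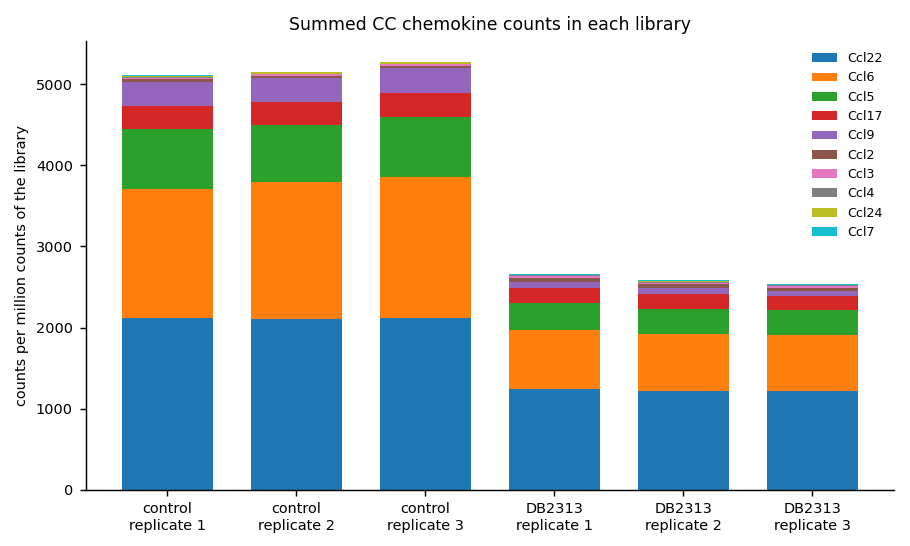
CPM of the 10 CC chemokines in each library without TMM scaling, stacked by gene, with an axis from 0. The stacks, which are the shares of 0.511% to 0.527% in control and 0.254% to 0.266% in DB2313 libraries, are made up mostly of Ccl22, Ccl6 and Ccl5 in both groups.

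To compare genes with each other, CPM was divided by gene length in kb. In the control group Ccl6 (963 CPM per kb) and Ccl22 (942 CPM per kb) came first and overlapped between libraries, followed by Ccl5 with 789, Ccl17 with 561.5 and Ccl9 with 103 CPM per kb. Ccl2 and Ccl3, at 26.9 and 26.2 CPM per kb, overlapped, and Ccl4 (15.6), Ccl24 (11.8) and Ccl7 (5.71 CPM per kb) were last. In the DB2313 group the order was Ccl22 (511 CPM per kb), Ccl6 (382), Ccl17 (340.1) and Ccl5 (319), the last pair overlapping. Ccl2 (34.4 CPM per kb) and Ccl3 (28.9) now stood above Ccl9 (23.1), which overlapped with Ccl4 (21.2), while Ccl7 (15.2) stood above Ccl24 (1.27). Ccl22 exceeded 99.8% of the tested genes per kb in control libraries and 99.5% in DB2313 libraries. Ccl9 went from above 96.6% to above 83.0% of the tested genes and Ccl24 from above 67.9% to above 22.6%. Ccl7 was above 74.5% of the tested genes in the DB2313 group.

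Ccl24 showed the largest fold change of the 10 genes. Ccl24 (eotaxin-2, ENSMUSG00000004814, chromosome 5 from 135569937 to 135573049, minus strand, GRCm38) was at 13.9, 15.7 and 16.1 CPM in the control libraries and at 1.68, 1.47 and 1.79 CPM in the DB2313 libraries. It rested on 251, 270 and 264 counts against 31, 25 and 33 counts. The groups were far apart, with means of 15.2 ± 1.18 and 1.65 ± 0.17 CPM (SD, n = 3 each). The log2 fold change was -3.20 (SE 0.16, adjusted p = 3.53e-14, edgeR), or 9.20-fold lower. None of the 15 tested macrophage markers had a lower log2 fold change, the lowest being -2.16 for Mertk. In the other marker lists Tpsb2 (-5.40), Ly6g (-3.92) and Cd209a (-3.54) fell further, and no other tested marker did. A link of Ccl24 to a cell type was not tested. Its receptor gene Ccr3 was low in both groups, with 1.004 ± 0.13 and 1.16 ± 0.45 CPM, and was not called.

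Ccl9 and Ccl6, which lie side by side and share the receptor Ccr1, both fell, Ccl9 by more. Ccl9 (ENSMUSG00000019122, chromosome 11 from 83572919 to 83578636, minus strand) was at 314, 309 and 319 CPM in control libraries and at 75.0, 72.2 and 63.8 CPM in DB2313 libraries. The lowest control library was far above the highest DB2313 library, and the log2 fold change was -2.16 (SE 0.05, adjusted p = 8.12e-21, edgeR), or 4.47-fold lower. Ccl6 (ENSMUSG00000018927, chromosome 11 from 83587882 to 83593087, minus strand) was at 1639, 1742 and 1803 CPM in control libraries and at 701, 687 and 670.5 CPM in DB2313 libraries. It fell by 1.33 on the log2 scale (SE 0.03, adjusted p = 2.69e-19, edgeR), or 2.52-fold. The ratio of Ccl9 to Ccl6 within a library, taken with 0.5 CPM added to each, was 0.192, 0.177 and 0.177 in control libraries and 0.108, 0.106 and 0.0958 in DB2313 libraries. The log2 ratio differed by -0.82 (SE 0.06) with an exact permutation p of 0.1, the smallest possible, and an adjusted p of 0.133 over the 4 pairs of CC chemokines compared.

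Where the RefSeq promoter table (GRCm38.p6) held a member, the 250 bases before and 50 bases after the start were read. It held 5 of the 10, Ccl3, Ccl6, Ccl9, Ccl17 and Ccl22. The promoters of the neighbours Ccl9 and Ccl6, which fell by different amounts, of Ccl3, which lies near them and was not called, and of Ccl17, on which the most motifs were found, are shown 5′ to 3′ on the gene's strand, with motif matches in capitals.
Ccl9: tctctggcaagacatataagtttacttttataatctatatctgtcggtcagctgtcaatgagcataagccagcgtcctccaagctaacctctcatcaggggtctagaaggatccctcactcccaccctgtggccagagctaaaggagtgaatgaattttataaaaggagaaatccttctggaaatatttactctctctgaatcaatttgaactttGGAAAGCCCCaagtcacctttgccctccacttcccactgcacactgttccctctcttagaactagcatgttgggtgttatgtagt
Ccl6: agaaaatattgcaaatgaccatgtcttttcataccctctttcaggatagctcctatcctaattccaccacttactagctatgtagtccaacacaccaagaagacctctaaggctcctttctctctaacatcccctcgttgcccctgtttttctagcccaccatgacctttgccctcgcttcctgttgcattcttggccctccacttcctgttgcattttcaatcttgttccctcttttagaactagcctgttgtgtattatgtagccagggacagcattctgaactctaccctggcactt
Ccl3: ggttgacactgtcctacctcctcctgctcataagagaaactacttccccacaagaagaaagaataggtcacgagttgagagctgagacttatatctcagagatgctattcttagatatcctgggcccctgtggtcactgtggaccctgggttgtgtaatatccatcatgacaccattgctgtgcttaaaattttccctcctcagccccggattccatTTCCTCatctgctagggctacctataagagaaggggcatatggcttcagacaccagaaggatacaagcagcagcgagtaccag
Ccl17: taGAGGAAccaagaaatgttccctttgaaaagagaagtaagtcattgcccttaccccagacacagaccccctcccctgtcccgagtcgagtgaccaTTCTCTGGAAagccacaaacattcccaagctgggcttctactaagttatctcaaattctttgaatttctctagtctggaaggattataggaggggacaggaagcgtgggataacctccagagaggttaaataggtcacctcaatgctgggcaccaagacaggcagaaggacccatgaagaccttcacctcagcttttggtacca
They lie at chr11:83578587-83578886 (Ccl9, minus strand), chr11:83593038-83593337 (Ccl6, minus strand), chr11:83649329-83649628 (Ccl3, minus strand) and chr8:94810203-94810502 (Ccl17, plus strand). Motifs were searched on both strands, with the first base of the transcript as +1 and no base 0. The PU.1-type motif GAGGAAGT, which holds the shorter GAGGAA, was in 3.2% of all 32851 promoters and in 0 of these 5. The shorter GAGGAA, in 28.3% of all promoters, was in Ccl17 at -248 and in Ccl3 at -33 on the minus strand of the promoter. The PU.1 and IRF composite type GGAANNGAAA, in 2.72% of all promoters, was in 0 of the 5. The NF-kB-type GGGNNTTTCC, in 1.63% of all promoters, was in Ccl9 at -35 on the minus strand, and the STAT6-type TTCNNNNGAA, in 6.95% of all promoters, was in Ccl17 at -154. These matches describe the letters in these windows and are not binding data.

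Ccl17 and Ccl22, the Ccr4 ligands that lie 58.8 kb apart on chromosome 8, both fell by less than 1 on the log2 scale. Ccl22 (ENSMUSG00000031779, chromosome 8 from 94745590 to 94751699, plus strand) was at 2182, 2182 and 2205 CPM in control libraries and at 1204, 1186 and 1174 CPM in DB2313 libraries. The libraries of a group differed by little, and the log2 fold change was -0.88 (SE 0.03, adjusted p = 1.25e-17, edgeR), or 1.84-fold lower. Ccl17 (ENSMUSG00000031780, chromosome 8 from 94810453 to 94812036, plus strand) was at 285, 284 and 297 CPM against 185, 183 and 157 CPM. DB2313 replicate 3 was the lowest, and the log2 fold change was -0.72 (SE 0.05, adjusted p = 4.92e-12, edgeR), or 1.65-fold lower. The ratio of Ccl17 to Ccl22 was 0.131, 0.130 and 0.135 in control libraries and 0.154, 0.154 and 0.134 in DB2313 libraries, so that the groups overlapped (log2 difference 0.16, SE 0.07, exact permutation p = 0.2, adjusted p = 0.200). Their receptor gene Ccr4 was at 12.8 ± 0.81 and 11.3 ± 1.28 CPM and was not called under TMM. Scaled to the T cell markers it was lower (-0.76), as were most tested genes.

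Ccl5, Ccl3 and Ccl4, which activated T cells can also make, lie in 1 cluster, but under TMM they differed in direction, while all 3 were negative under scaling to the T cell markers. Ccl5 (RANTES, ENSMUSG00000035042, chromosome 11 from 83525778 to 83530518, minus strand) was at 766, 737 and 770.0 CPM in control libraries and at 323, 299 and 297 CPM in DB2313 libraries. The log2 fold change was -1.31 (SE 0.04, adjusted p = 8.31e-19, edgeR), or 2.47-fold lower. All 18 T cell markers were higher, and 14 of 15 tested macrophage markers were lower, with 6 of the 15 below Ccl5 in log2 fold change. A link of Ccl5 to either list was not tested. Ccl4 (MIP-1β, ENSMUSG00000018930, chromosome 11 from 83662584 to 83664683, plus strand) was at 11.7, 9.08 and 10.0 CPM against 14.4, 14.7 and 12.9 CPM. The groups did not overlap, and the log2 fold change was 0.44 (SE 0.12, adjusted p = 0.00308, edgeR). Under scaling to the T cell markers it was -0.14 and Ccl4 was not called in either direction (adjusted p = 0.274, edgeR). Ccl3 (MIP-1α, ENSMUSG00000000982, chromosome 11 from 83647844 to 83649355, minus strand) was at 21.8, 20.4 and 18.1 CPM against 25.2, 21.2 and 20.0002 CPM. The groups overlapped and the log2 fold change was 0.14 (95% confidence interval -0.06 to 0.34, adjusted p = 0.267, edgeR), which does not show that the level stayed the same. The ratio of Ccl4 to Ccl3 was 0.547, 0.458 and 0.566 in control and 0.580, 0.702 and 0.653 in DB2313 libraries, a log2 difference of 0.30 (SE 0.12, exact permutation p = 0.1, the smallest possible; adjusted p = 0.133).

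Ccl2 and Ccl7, the monocyte chemoattractants, were both higher under TMM, Ccl7 by more. Ccl7 (MCP-3, ENSMUSG00000035373, chromosome 11 from 82045712 to 82047525, plus strand) was at 2.99, 6.46 and 4.28 CPM in control libraries and at 11.7, 13.0 and 11.8 CPM in DB2313 libraries, from 54, 111 and 70 counts against 216, 222 and 218. Control replicate 2 was the highest of its group but still under all DB2313 libraries. The log2 fold change was 1.41 (SE 0.18, adjusted p = 5.15e-07, edgeR), or 2.67-fold higher. Under scaling to the T cell markers it was 0.83 (adjusted p = 2.73e-04, edgeR), still higher but no longer past the fold limit, and glmTreat, which tests against that limit, did not call it either. Ccl2 (MCP-1, ENSMUSG00000035385, chromosome 11 from 82035571 to 82037453, plus strand) was at 30.0, 28.6 and 33.2 CPM against 41.6, 37.9 and 38.1 CPM. The groups did not overlap, and the log2 fold change was 0.36 (SE 0.07, adjusted p = 2.75e-04, edgeR), a rise that turned to -0.23 under scaling to the T cell markers. The ratio of Ccl7 to Ccl2 was 0.114, 0.239 and 0.142 in control and 0.290, 0.352 and 0.320 in DB2313 libraries (log2 difference 1.02, SE 0.33, exact permutation p = 0.1, the smallest possible; adjusted p = 0.133). All 15 tested macrophage markers had a lower log2 fold change than Ccl7.

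**Figure D3:**
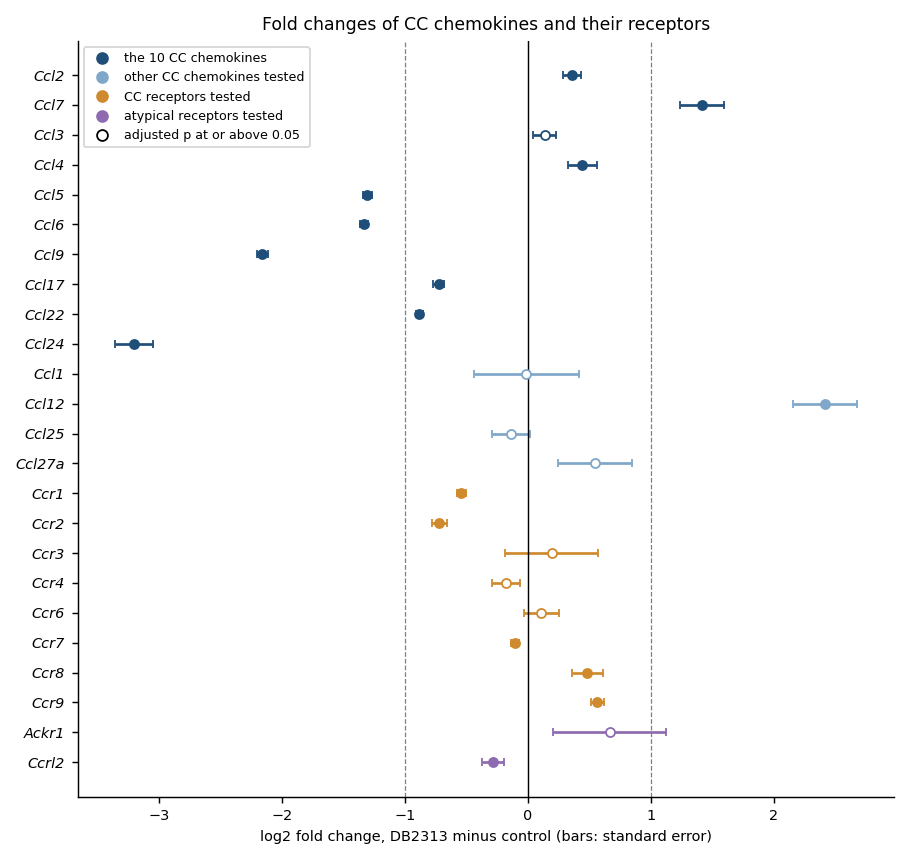
Log2 fold change of DB2313 over control under TMM scaling for the 10 CC chemokines, the other CC chemokines tested and the CC and atypical receptors tested, with bars for the standard error and open points for an adjusted p at or above 0.05 (edgeR, n = 3 per group). Among the 10, Ccl24 lies lowest at -3.20 and Ccl7 highest at 1.41. The positive values of Ccl2, Ccl3, Ccl4, Ccl27a, Ccr3, Ccr6, Ccr8 and Ccr9 turned negative under scaling to the T cell markers. On that scale Ccl2, Ccl3 and Ccr6 were called lower, and Ccl4, Ccl27a, Ccr3, Ccr8 and Ccr9 were not called.

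**Figure D4:**
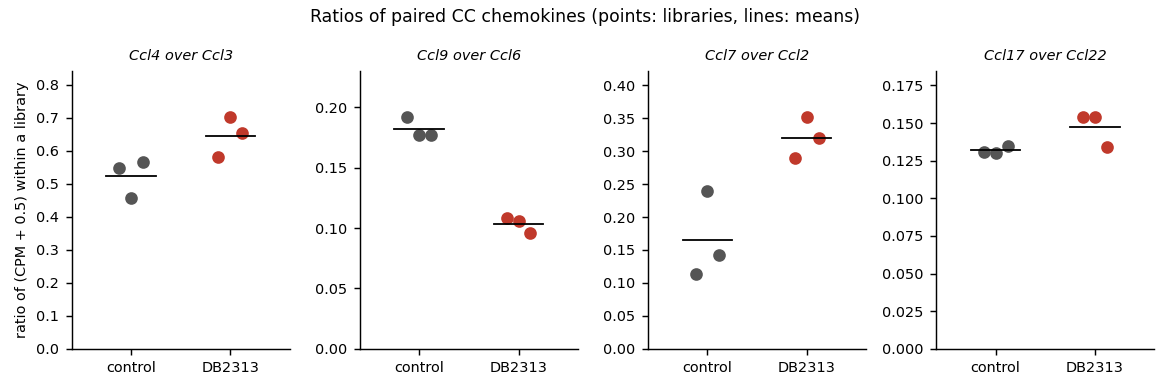
Ratio of 4 pairs of CC chemokines within each library, with 0.5 CPM added to each gene and a linear axis from 0; points are libraries and lines are means (n = 3 per group). Ccl9 over Ccl6 is lower and Ccl7 over Ccl2 and Ccl4 over Ccl3 are higher in all DB2313 libraries, and Ccl17 over Ccl22 overlaps.

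On chromosome 11 the CC chemokines form 2 groups 1220 kb apart, which under TMM differed in the direction of their members. From Ccl2 to Ccl1 (82035571 to 82305690) lie 6 listed CC chemokine genes, of which 4 were tested, with 3 higher and 0 lower. Besides Ccl2 and Ccl7, these were Ccl12 (MCP-5), which was higher at 1.30 ± 0.68 against 6.91 ± 0.74 CPM, from 10, 25 and 31 counts against 112, 126 and 134 (log2 fold change 2.42, SE 0.26, adjusted p = 4.49e-08, edgeR), and Ccl1, which was not called. From Ccl5 to Ccl4 (83525778 to 83664683) lie 5 genes, all tested, with Ccl5, Ccl9 and Ccl6 lower, Ccl4 higher and Ccl3 not called. Over all tested genes, 24.6% were lower and 20.8% higher. Under scaling to the T cell markers Ccl2 and Ccl4 turned negative, Ccl4 without being called, and Ccl7 and Ccl12 did not. With 50-base stretches of the annotated transcripts, 9 of the 10 members shared none with another gene, and Ccl9 shared 59 of 2996 (1.97%), none with a CC chemokine. E230016K23Rik, with 18 to 52 counts per library, covers all 5206 bases of Ccl6 on the other strand, and Gm17268, with at most 2 counts, covers Ccl2; since the sources do not give the strand setting, reads of these genes cannot be told apart where they overlap.

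**Figure D5:**
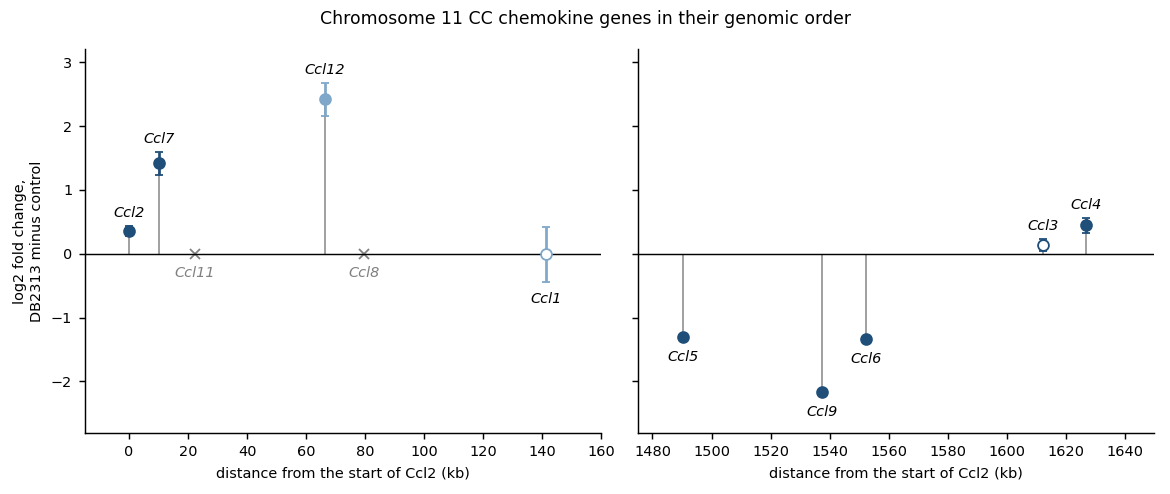
Log2 fold change of DB2313 over control under TMM scaling for the CC chemokine genes of both groups on chromosome 11, against the distance from the start of Ccl2 in kb; bars are standard errors (n = 3 per group), open points were not called and crosses were not tested. Ccl12 lies highest at 2.42 and Ccl9 lowest at -2.16. The positive values of Ccl2, Ccl3 and Ccl4 turned negative under scaling to the T cell markers, where Ccl4 was not called.

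Protein-coding genes within 100 kb of a member were also examined. Of 28 such genes, 18 were tested, with 6 lower, 3 higher and 9 not called, and a median of -0.078. Of all tested genes, 24.6% were lower and 20.8% higher. Under scaling to the T cell markers 16 of the 18 were lower, 8 of those 9 not called among them, and 1, Ccl12, was higher. Over all 14883 tested genes that scaling gave 11498 lower and 168 higher. The lower genes included Wfdc21 (19.5 ± 0.13 to 2.98 ± 0.26 CPM, log2 fold change -2.70) and Wfdc17 (78.3 ± 2.25 to 33.9 ± 2.25 CPM, -1.21) beside Ccl4, and Heatr9 (7.98 ± 0.44 to 2.84 ± 0.55 CPM, -1.49) beside Ccl5. Cx3cl1, the membrane-bound chemokine fractalkine, lies between Ccl22 and Ccl17 and fell from 57.5 ± 1.05 to 31.8 ± 2.78 CPM (log2 fold change -0.85, adjusted p = 2.08e-10, edgeR). Hip1 (-0.52) and Ccdc102a (-0.80) also fell. Rhbdd2 (0.36) and Arl2bp (0.12) rose under TMM and turned negative under scaling to the T cell markers, and Ccl12 rose on both scales. The 9 genes not called, Taf15, Por, Coq9, Ciapin1, Polr2c, Dok4, Rspry1, Heatr6 and 1700020L24Rik, had log2 fold changes from -0.16 to 0.44.

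Among the other 14 CC chemokine genes listed, 4 were tested and Ccl12 alone was called under TMM. Ccl25 (-0.14, adjusted p = 0.490, edgeR), Ccl27a (0.55, adjusted p = 0.149, edgeR) and Ccl1 (-0.01, adjusted p = 0.986, edgeR) were not. Scaled to the T cell markers, Ccl25 was lower (-0.72), as were most tested genes. Ccl8 had 7, 4 and 4 counts in control and 6, 14 and 19 in DB2313 libraries, Ccl20 at most 6 and Ccl28 at most 6, and none of these was tested. The other 7 had 0 counts in all libraries (Ccl11, Ccl19, Ccl21a, Ccl21b, Ccl21c, Ccl26 and Ccl27b).

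The receptors of these chemokines were then examined. Of 10 CC receptors listed, 8 were tested, with 3 lower and 2 higher, or 5 lower and 0 higher under scaling to the T cell markers. Of all 14883 tested genes, 24.6% were lower and 20.8% higher under TMM, and 11498 lower and 168 higher on that scale. Ccr2, the receptor of Ccl2 and Ccl7, fell from 74.7 ± 1.63 to 45.3 ± 4.62 CPM (-0.72, adjusted p = 1.43e-09, edgeR), and Ccr1, that of Ccl6 and Ccl9, from 180.3 ± 2.25 to 123.8 ± 1.962 CPM (-0.54, adjusted p = 1.21e-11, edgeR). Ccr7, which guides lymphocytes and mature dendritic cells to lymph nodes, changed by -0.10 (adjusted p = 0.0079, edgeR). Ccr9 (50.6 ± 2.44 to 74.9 ± 2.69 CPM, 0.57, adjusted p = 8.53e-09, edgeR) and Ccr8 (7.84 ± 0.57 to 11.002 ± 1.26 CPM, 0.49, adjusted p = 0.00319, edgeR) rose under TMM but not under scaling to the T cell markers, where both were slightly negative. Ccr3 (0.20), Ccr4 (-0.17) and Ccr6 (0.11) were not called under TMM, Ccr10 was not tested, and Ccr1l1 had 0 counts. Scaled to the T cell markers, Ccr4 (-0.76) and Ccr6 (-0.48) were lower and Ccr3 was not called. Of the atypical receptors, 2 of 4 were tested, with Ccrl2 lower (21.9 ± 0.68 to 18.0 ± 1.27 CPM, adjusted p = 0.0106, edgeR) and Ackr1 not called.

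Genes that act on CC chemokine transcripts or proteins were grouped in 3 lists. Of 7 cytokines that can induce them, 3 were lower, 0 were higher and 4 were not called, with Il1b falling from 13.0 ± 1.31 to 3.06 ± 0.48 CPM (log2 fold change -2.08). The others were Tnf (-0.37) and Csf2 (-0.80), and Ifng was at 1.34 ± 0.25 and 0.84 ± 0.45 CPM and was not called. Of 14 regulators of transcription and mRNA decay, 11 were lower, 0 were higher and 3 were not called. Under scaling to the T cell markers 6 of the cytokines, Ifng among them (-1.23, adjusted p = 0.00709, edgeR), and all 14 regulators were lower. Of all 14883 tested genes, 24.6% were lower under TMM and 11498 genes on that scale. Irf4 (116.8 ± 1.75 to 52.1 ± 2.49 CPM, -1.17), Irf8 (-1.08) and Irf5 (-1.07) passed the fold limit. Spi1, which encodes PU.1, was at 278.5, 289.9 and 290.5 CPM in control libraries and at 159.2, 159.1 and 148.4 CPM in DB2313 libraries (-0.88); an inhibitor of binding need not change its target's mRNA, so this is no check of the treatment. Of 5 genes of processing and storage, Mmp9 (25.9 ± 0.78 to 3.05 ± 0.54 CPM, -3.08) and Mmp2 (31.7 ± 2.61 to 5.25 ± 1.48 CPM, -2.59), gelatinases that cut chemokines, were lower. Mmp12, the macrophage elastase, was higher (481.6 ± 13.7 to 770.1 ± 5.18 CPM, 0.68), also under scaling to the T cell markers (0.090). Dpp4 and Srgn were not called under TMM, but on that scale were lower (-0.63 and -0.60), as were most tested genes.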

How the data were processed

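The 6 RNA-seq libraries came from CD8T cells cocultured with macrophages by the paper's account, or with DC cells by the labels, 3 without and 3 with DB2313. The authors deposited raw counts per gene, without normalization. The submitters' processing notes name CASAVA 1.8, HISAT2 2.0.5 and featureCounts 1.5.0-p3, whereas the paper's methods name LifeScope. Genome build, annotation and strand setting are not given in the sources used here. Of 54409 genes shared with GENCODE mouse release 21, 53499 (98.3%), and all 10 members, had its GRCm38 coordinates. Samples were grouped by the labels.

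Library totals ranged from 16611975 to 18596217 counts. The limit given for a count of 0 covers counting error only, because reads that carry no molecular identifiers need not be independent molecules. Between libraries of a group, the chi-square per gene was 2.54 to 4.00, against 51.8 to 56.0 between groups, so all were kept as separate libraries.

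After filterByExpr and TMM, the quasi-likelihood functions of edgeR 4.0.16 (glmQLFit, then glmQLFTest; R 4.3.3) were run over 14883 of the 27310 genes with at least 1 count, and genes were called at a Benjamini-Hochberg adjusted p under 0.05, with a second limit of 1 on the absolute log2 fold change. TMM assumes that most genes do not change. The standard error was obtained from the fitted change and its F statistic. Shares and ratios (0.5 CPM added) were compared with two-sided exact permutation tests (scipy 1.17.1). The script was tested on simulated counts.

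The members and gene lists were chosen with earlier results of these data known. Values are given for the members, genes of the pathway lists past both limits, CC receptors that passed the filter, other CC chemokines with counts and neighbours within 100 kb that passed the filter; marker lists are given as counts, medians and summed levels. Spi1, Tnf, Csf2, Ifng, Mmp12, Ccrl2 and the single markers given were named after their values were seen. The alternatives were DESeq2 1.42.0, other scalings, other filters, glmTreat, protein-coding genes, a replicate block, other pseudocounts and leaving out each library. Promoter sequences were taken from RefSeq. From the pathway lists, 2 genes were left out and are not reported here.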

Additional observations from a re-analysis of the deposited data

How the results depend on the processing

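Over 14 alternatives, the log2 fold changes of the 10 CC chemokines kept both direction and call in 137 of 140 comparisons. The exceptions came when libraries were scaled to the T cell markers, which by construction sets the summed counts of those genes level. Single T cell markers still differed there, with 4 of 18 lower and 3 higher. This scaling moved the median of all tested genes to -0.57. Ccl2 became -0.23, Ccl3 -0.45 and Ccl4 -0.14, with Ccl4 not called. The members called higher went from 3 to 1, and those higher past the fold limit from 1 to 0. Those lower past it went from 4 to 6, with Ccl17 at -1.31 and Ccl22 at -1.47. On that scale 98% of the calls past the fold limit over all genes were lower, beside 79.5% under TMM, and 11498 genes were lower and 168 higher, beside 3667 and 3096. With glmTreat, which tests against the fold limit itself, 4 members were lower and 0 higher, and over all genes 400 were lower and 30 higher, beside 789 and 204. Without scaling factors, 4931 genes were higher. Genes higher past the fold limit numbered 103 with at least 10 counts in every library and 133 among protein-coding genes, both of which tested fewer genes. With 5 CPM added, the log2 ratio of Ccl7 to Ccl2 differed by 0.55, beside 1.02, since this addition is close to the level of Ccl7. Leaving out each library in turn gave 1.18 to 1.75 for Ccl7, -3.27 to -3.13 for Ccl24 and 0.03 to 0.21 for Ccl3, and changed no call among the members. The replicate numbers do not pair the libraries, since the deviations of same-numbered libraries correlated at 0.014, -0.0039 and 0.019 and not every library correlated best with its own number. A replicate block left 6 members lower and 3 higher, and changed no call. Among the members, Ccl24 had 25 to 33 counts in the DB2313 libraries and Ccl7 54 to 111 in the control libraries, which limits the precision of their fold changes.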
